A study of Drosophila melanogaster with 4 samples.

Results

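The autophagy (Atg) and vacuolar ATPase (Vha) genes of the fly larval fat body were followed here as 2 families of 20 genes each, 40 of the 13402 genes measured. They were taken by name, from rows to which the array's annotation gives a single gene symbol. Every such gene whose symbol is Atg or Vha followed by a digit was kept. Each of the 40 had 1 row in the table, and all matched a gene record of the Release 6 assembly. Vha68-1 and Vha68-2, which encode the catalytic A subunit in flies, matched no row with a single symbol and were not analysed here.

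Autophagy wraps cytoplasm in a double membrane, the autophagosome, and delivers it to the lysosome for breakdown. A kinase complex around Atg1 starts the process, a lipid kinase complex and membrane carriers build the membrane, and ubiquitin-like conjugation ties Atg8 to it. The V-ATPase is the proton pump that acidifies lysosomes and endosomes. Its V1 sector splits ATP in the cytosol and its V0 sector carries protons through the membrane. In the fly fat body, the organ that stores nutrients, autophagy is known to follow starvation and the ecdysone pulse that ends larval growth, and the lysosome surface is where the TORC1 kinase senses amino acids. Many fly V-ATPase subunits are encoded by several paralogues.

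Expression was measured on 4 single-colour Affymetrix arrays, 2 per group, each carrying fat body RNA pooled from 10 larvae of strain w1118. The PFJ group had eaten palm fruit juice, a phenolic-rich extract, mixed into a semi-purified diet. The labels give its volume as 4 ml and its phenolic content, counted as gallic acid, as 19000 mg per kg of food and as 0.86 mg per kcal. These label values are repeated as given and were not checked against each other. The control group had eaten that diet alone. Larvae of both groups were 5 days from the egg stage, and the comparison asked which transcripts differ with the juice. All levels below are RMA intensities on the log2 scale, where a difference of 1 is a 2-fold difference. A row's level depends on its own probes, so values were compared between arrays for the same gene. Where genes are called brighter or dimmer, this sorts their rows by signal on the array and does not compare amounts of RNA.

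The arrays did not separate by diet. Pearson's r across genes was 0.961 between the PFJ arrays and 0.910 between the control arrays, against 0.920 to 0.968 for arrays of different groups. The fat body list had 8 of 13 markers measured, with means of 10.13 and 10.35 in PFJ replicates 1 and 2, and of 9.85 and 9.72 in control replicates 1 and 2. These markers did not move together: 5 were higher and 3 lower with PFJ, with log2 differences from -0.34 to 1.78. Testis markers (29 of 37 measured) averaged 5.18 and 4.33 in PFJ, against 5.57 and 2.96 in control, so that control replicate 2 stood apart. Midgut markers (26 of 32 measured) averaged 5.40 and 6.40 in PFJ, against 4.74 and 6.08 in control. In pooled tissue, fewer cells of a type and less RNA per cell cannot be told apart. The part of these tissues in the results below was not tested.

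Neither family differed detectably between the diets. By limma's moderated test over all genes, 0 of 20 Atg genes and 0 of 20 Vha genes passed an adjusted p of 0.05, where 0% of all genes did. None of the 40 members had an unadjusted p under 0.05 either, where 2.78% of all genes had one. The smallest unadjusted limma p was 0.157 for Atg13 in the Atg family and 0.188 for Vha14-1 in the Vha family, and the adjusted p was 1 for both. Half-widths of the 95% interval had a median of 0.77 for Atg genes and 0.86 for Vha genes. The smallest two-sided p that an exact permutation test allows at this size is 0.333.

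In direction, most Atg genes lay below the control level with PFJ and the Vha genes were divided. The log2 difference, PFJ minus control, was negative for 15 of 20 Atg genes, with a median of -0.20 and a range from -0.88 to 0.29. It was negative for 11 of 20 Vha genes, with a median of -0.03 and a range from -0.46 to 0.63. Over all genes 48.1% of differences were negative and the median was 0.01. Brighter genes leaned lower in general: of all genes at or above the median level 59.9% were negative, against 14 of the 16 Atg genes at that level. The Atg median was close to 0 when PFJ replicate 1 or control replicate 2 was left out (-0.03 and -0.004), and 10 of 20 differences were then negative in each case.

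Groups that did not overlap were counted for each family. The PFJ pair was entirely higher than the control pair in 3 Atg and 2 Vha genes, where 15.5% of all genes had that order. The PFJ pair was entirely lower in 3 Atg genes and 1 Vha gene, where 13.1% of all genes had that order. The counts of 20 genes a family were not tested against these shares.

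**Figure D1:**
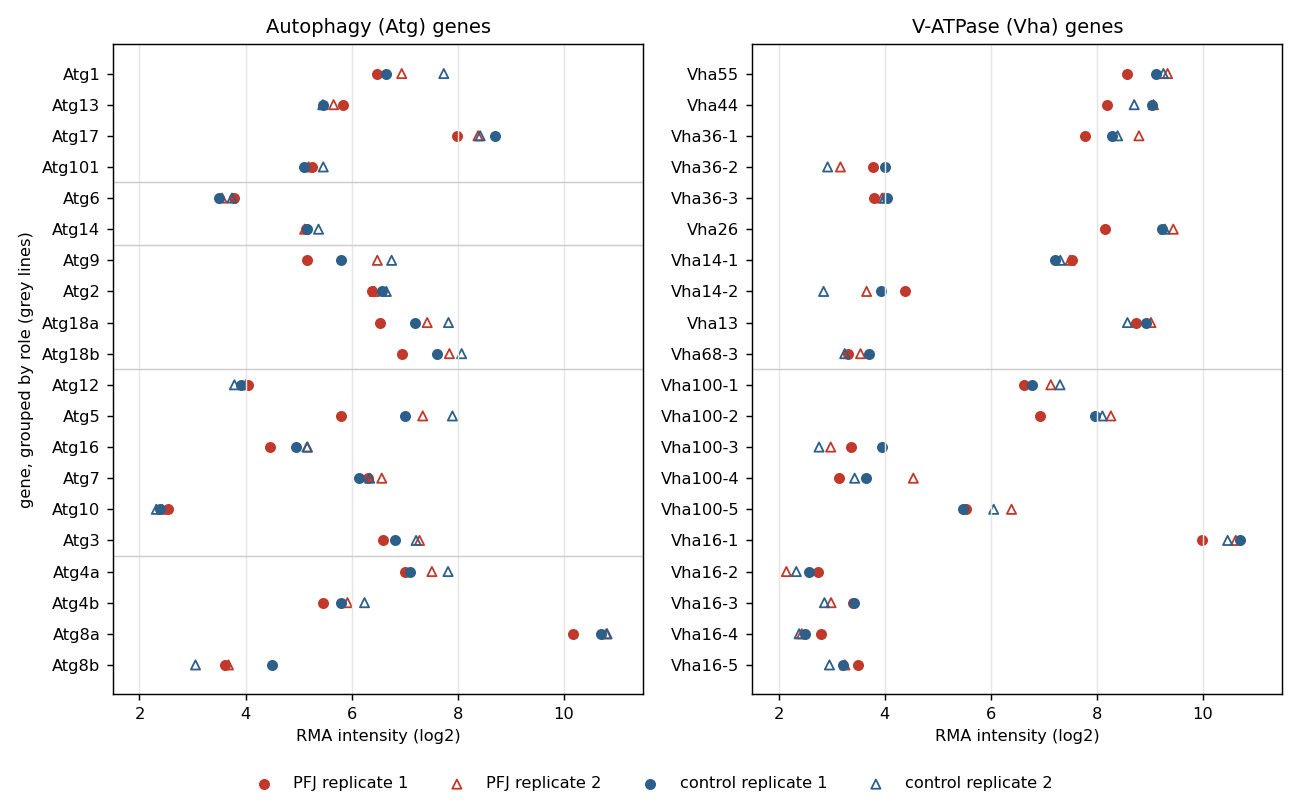
Levels of the 20 Atg genes (left) and 20 Vha genes (right) on each array, as RMA intensity (log2). Red marks are PFJ arrays and blue marks control arrays, filled circles are replicate 1 and open triangles replicate 2, and grey lines part the role groups. Replicates of 1 diet often lie as far apart as the diets, as for Atg5, where the PFJ arrays read 5.81 and 7.34.

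Among the initiation genes, Atg13 lay above and Atg17 below its control level with PFJ. Atg13, the regulatory partner of the Atg1 kinase, read 5.84 and 5.66 in PFJ, against 5.46 and 5.46 in control. The groups did not overlap, and the log2 difference was 0.29 (SE 0.17, 95% interval -0.17 to 0.76). Atg17, the fly FIP200 scaffold of the same complex, read 7.98 and 8.38 in PFJ, against 8.71 and 8.42 in control. Here too the groups did not overlap, at a difference of -0.38 (SE 0.23), although PFJ replicate 2 and control replicate 2 were nearly equal. Atg1, the kinase itself, read 6.47 and 6.95 in PFJ, against 6.65 and 7.74 in control. Its highest value was control replicate 2, and the difference of -0.48 (SE 0.45) was smaller than the gap of 1.09 between the control arrays. Without control replicate 2 it was 0.06. Atg101, which binds Atg13, differed by -0.07 (SE 0.20).

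The lipid kinase complex makes the phosphoinositide that marks the forming autophagosome. Atg14, which directs the kinase there, read 5.13 and 5.12 in PFJ, against 5.16 and 5.38 in control, so that the groups were just apart, at -0.14 (SE 0.17). Atg6, the fly Beclin, overlapped between groups at 0.04 (SE 0.19).

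The 4 genes of membrane supply all had negative differences, where 59.9% of all genes at or above the median level did. Without PFJ replicate 1 the sign was negative in 2 of 4, and Atg9 and Atg18b stood at 0.21 and 0.01. Without control replicate 2, Atg9 stood at 0.03. Atg2, a lipid transfer protein, read 6.39 and 6.43 in PFJ, against 6.58 and 6.65 in control. Its groups did not overlap, its arrays varied little within each diet, and the difference was -0.21 (SE 0.16, 95% interval -0.65 to 0.23). Atg18a, Atg18b and Atg9 had differences of -0.54 (SE 0.42), -0.44 (SE 0.39) and -0.45 (SE 0.60). Atg18a and Atg18b bind phosphoinositides, and Atg9 is the membrane protein of the vesicles that supply the growing membrane. All 3 overlapped between groups and shared an order, with PFJ replicate 1 lowest and control replicate 2 highest. Atg9 read 5.17 and 6.49 in PFJ, against 5.80 and 6.75 in control.

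In the conjugation group, 3 of 6 differences were positive and 3 negative. Atg5, which accepts Atg12, had the most negative difference of either family when all arrays were used. It read 5.81 and 7.34 in PFJ, against 7.0 and 7.90 in control. PFJ replicate 1 lay 1.20 below the next array, the groups overlapped, and the difference was -0.88 (SE 0.65, 95% interval -2.67 to 0.91). It was -0.11 without PFJ replicate 1 and -1.65 without PFJ replicate 2, -1.33 without control replicate 1 and -0.43 without control replicate 2. Its partners did not share that size. Atg12 read 4.05 and 4.00 in PFJ, against 3.91 and 3.79 in control, with no overlap, at 0.18 (SE 0.16). Atg10, the enzyme that passes Atg12 on, read 2.55 and 2.43 in PFJ, against 2.38 and 2.32 in control, again without overlap, at 0.14 (SE 0.16). These positive differences were among rows dimmer than the median gene, where 36.2% of all differences were negative. Atg16, which binds the conjugate, differed by -0.24 (SE 0.30), Atg3, which passes Atg8 on, by -0.09 (SE 0.32), and the activating enzyme Atg7 by 0.20 (SE 0.19).

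Atg8a, the fly LC3 that coats the autophagosome, read 10.17 and 10.81 in PFJ, against 10.71 and 10.82 in control. Only PFJ replicate 1 stood away from the others, and the difference was -0.28 (SE 0.28), or 0.04 without it. The proteases that trim Atg8, Atg4a and Atg4b, differed by -0.20 (SE 0.35) and -0.33 (SE 0.28). Atg8b, a paralogue known in flies chiefly from the male germline, read 3.62 and 3.68 in PFJ, against 4.49 and 3.06 in control. Its control arrays were 1.44 apart on either side of both PFJ arrays, and the difference was -0.13 (SE 0.53).

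**Figure D2:**
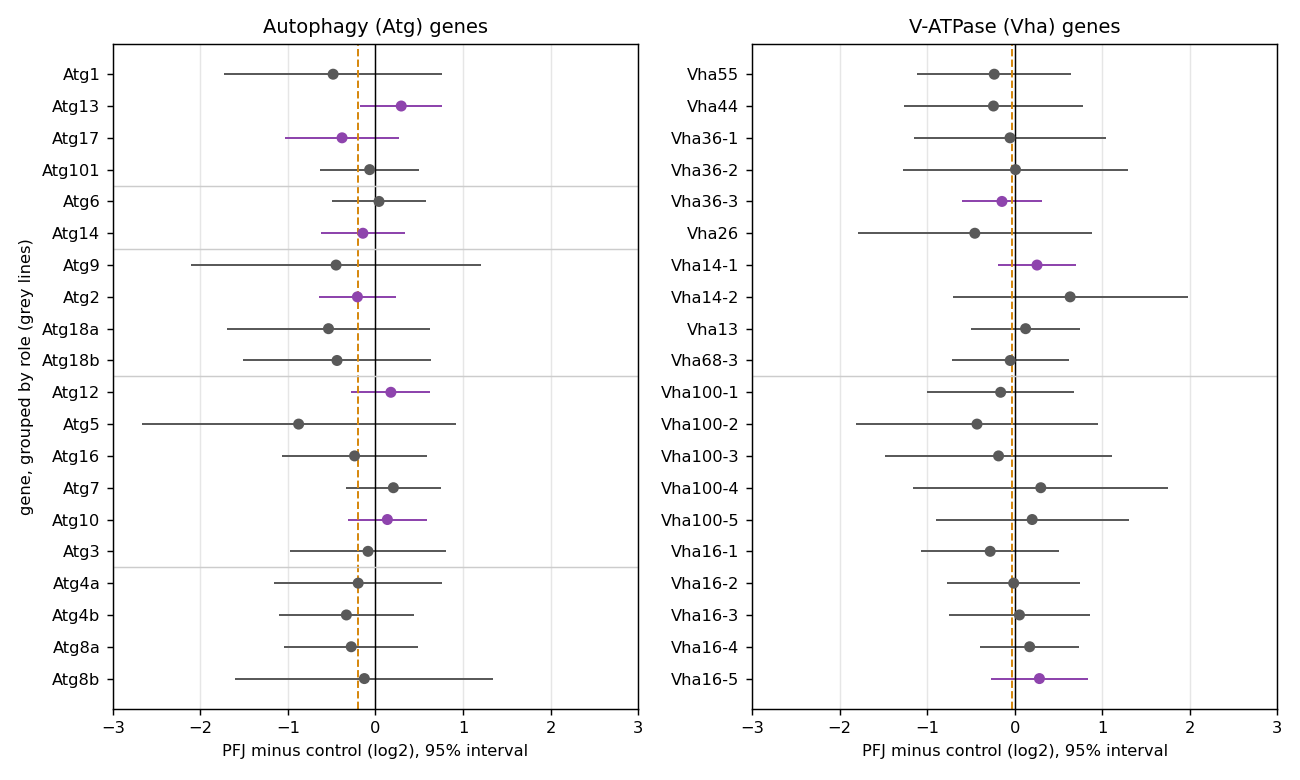
PFJ minus control (log2) for each gene, with the moderated 95% interval from limma (2 arrays per group). Purple marks genes whose groups did not overlap, the dashed line is the family median (-0.20 for Atg, -0.03 for Vha), and grey lines part the role groups. All 40 intervals include 0.

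In the V1 sector, the subunits with a level above the median gene differed by between -0.46 and 0.25. Vha26, the E subunit of the stalk, read 8.15 and 9.44 in PFJ, against 9.22 and 9.28 in control. PFJ replicate 1 lay 1.07 below the next array while PFJ replicate 2 was the highest, and the difference was -0.46 (SE 0.48). Without PFJ replicate 1 it was 0.19. Vha14-1, the F subunit of the rotor, had groups that did not overlap. It read 7.53 and 7.49 in PFJ, against 7.21 and 7.31 in control, a difference of 0.25 (SE 0.16, 95% interval -0.19 to 0.70).

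The remaining brighter V1 genes overlapped between groups. Vha55, the B subunit of the catalytic head, differed by -0.23 (SE 0.32), Vha44, the C subunit, by -0.24 (SE 0.37), and Vha36-1, the D subunit of the rotor, by -0.05 (SE 0.40). Each of these 3 was lowest in PFJ replicate 1 and highest in PFJ replicate 2. Vha13, the G subunit, departed from that order, with its lowest value in control replicate 2, and differed by 0.12 (SE 0.22).

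In the V0 sector, Vha100-2, a paralogue of the a subunit that lies at the membrane, read 6.93 and 8.26 in PFJ, against 7.96 and 8.10 in control. Again PFJ replicate 1 was lowest, by 1.02, and PFJ replicate 2 highest, and the difference was -0.43 (SE 0.50). Without PFJ replicate 1 it was 0.23. Vha16-1, the c subunit of the proton-carrying ring, read 9.99 and 10.62 in PFJ, against 10.70 and 10.47 in control, at -0.28 (SE 0.28). The a subunit paralogues Vha100-1 and Vha100-5 differed by -0.16 (SE 0.30) and 0.20 (SE 0.40). Vha100-4, the neighbour of Vha100-2 on the Release 6 assembly, read 3.13 and 4.54 in PFJ, against 3.64 and 3.43 in control. Both neighbours were lowest in PFJ replicate 1 and highest in PFJ replicate 2, as were the non-neighbours Vha26, Vha55, Vha44 and Vha36-1. Vha100-4 differed by 0.30 (SE 0.53).

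The 10 Vha genes below the median level of all genes were all paralogues of subunits with several genes. Vha14-2, the second F subunit gene, had the largest positive difference of either family. It read 4.38 and 3.66 in PFJ, against 3.92 and 2.85 in control, so that the groups overlapped, at 0.63 (SE 0.48, 95% interval -0.71 to 1.97). Vha36-2, of the D subunit, read 3.77 and 3.16 in PFJ, against 4.00 and 2.92 in control, and Vha100-3, of the a subunit, read 3.36 and 2.98 in PFJ, against 3.95 and 2.76 in control. In both, control replicate 1 was highest and control replicate 2 lowest, and the differences were 0.01 (SE 0.46) and -0.18 (SE 0.47).

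Among these 10 dimmer genes, 2 had groups that did not overlap, where 29.6% of all genes below the median level had such groups. Vha16-5, of the c subunit, read 3.49 and 3.25 in PFJ, against 3.21 and 2.96 in control, at 0.28 (SE 0.20). Vha36-3, of the D subunit, read 3.80 and 3.95 in PFJ, against 4.05 and 3.99 in control, at -0.15 (SE 0.17). Vha16-2, Vha16-3, Vha16-4 and Vha68-3 overlapped, with differences from -0.05 to 0.17. No detection call against background was made for any row, so a level near the low end of the array is not shown to be expression.

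For most members, as for most genes on the array, the replicates of 1 diet differed by more than the diets did. The larger of the 2 within-diet gaps exceeded the size of the difference between diets in 16 of 20 Atg genes and 18 of 20 Vha genes, against 10928 of all 13402 genes. The 6 members where it did not were Atg13, Atg2, Atg12, Atg10, Vha14-1 and Vha16-5.

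**Figure D3:**
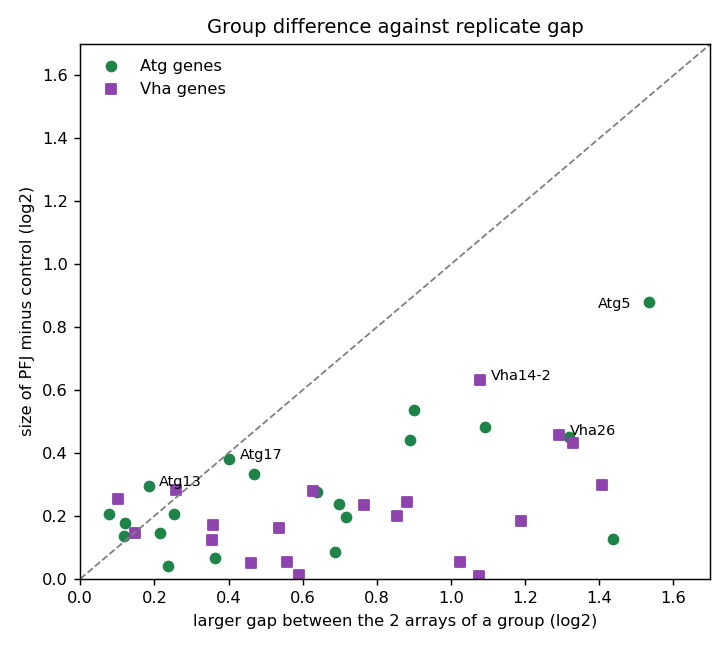
Size of the PFJ minus control difference (log2, vertical) against the larger gap between the 2 arrays of 1 diet (log2, horizontal), for Atg genes (green circles) and Vha genes (purple squares). The dashed line marks equality, and 34 of 40 genes lie below it, Atg5 among them. The gap was also the larger of the 2 sizes for 10928 of all 13402 genes, which are not drawn.

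The array-to-array pattern was described separately for genes with brighter and dimmer rows, with no test between them. Of the 10 Vha genes at or above the median level of all genes, 7 were lowest in PFJ replicate 1, as were 12 of the 16 such Atg genes. Among all genes of that level the share was 37.1%. The brighter Vha genes deviated from their own 4-array means by medians of -0.48 and 0.29 in PFJ replicates 1 and 2, and of 0.08 and 0.14 in control replicates 1 and 2. For the brighter Atg genes the medians were -0.40 and 0.17 in PFJ, against -0.05 and 0.23 in control. All genes of that level had medians of -0.07 and 0.00 in PFJ, against -0.02 and 0.09 in control. Both sets of members were most often lowest in PFJ replicate 1, while the highest array was PFJ replicate 2 in 7 of 10 brighter Vha genes and control replicate 2 in 11 of 16 brighter Atg genes. Among all genes of that level, PFJ replicate 2 was highest in 20.1% and control replicate 2 in 40.1%. Markers of the Malpighian tubule, a tissue known for abundant V-ATPase (11 of 12 measured), had medians of -0.40 and 0.36 in PFJ, against 0.28 and -0.02 in control. They were lowest in PFJ replicate 1 in 5 of 11 genes, and their part in the Vha pattern was not tested.

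Among the dimmer Vha genes, PFJ replicate 1 was lowest in 2 of 10, against 12.5% of all genes below the median level. Control replicate 2 was lowest in 7 of 10, where it was lowest in 36.2% of all genes below the median level. It was also lowest in 3 of the 4 dimmer Atg genes. Median deviations of the dimmer Vha genes were 0.25 and -0.07 in PFJ, against 0.17 and -0.26 in control. The testis markers had their low array in common with them, with medians of 0.53 and -0.20 in PFJ, against 1.05 and -1.23 in control, and all 29 were lowest in control replicate 2. VhaM9.7-d, a dim paralogue of the V0 e subunit outside the 40, read 4.38 and 3.59 in PFJ, against 4.23 and 2.66 in control. Larval muscle markers were lowest in control replicate 2 in 7 of 9 genes. The part of testis or muscle RNA in these values was not tested.

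**Figure D4:**
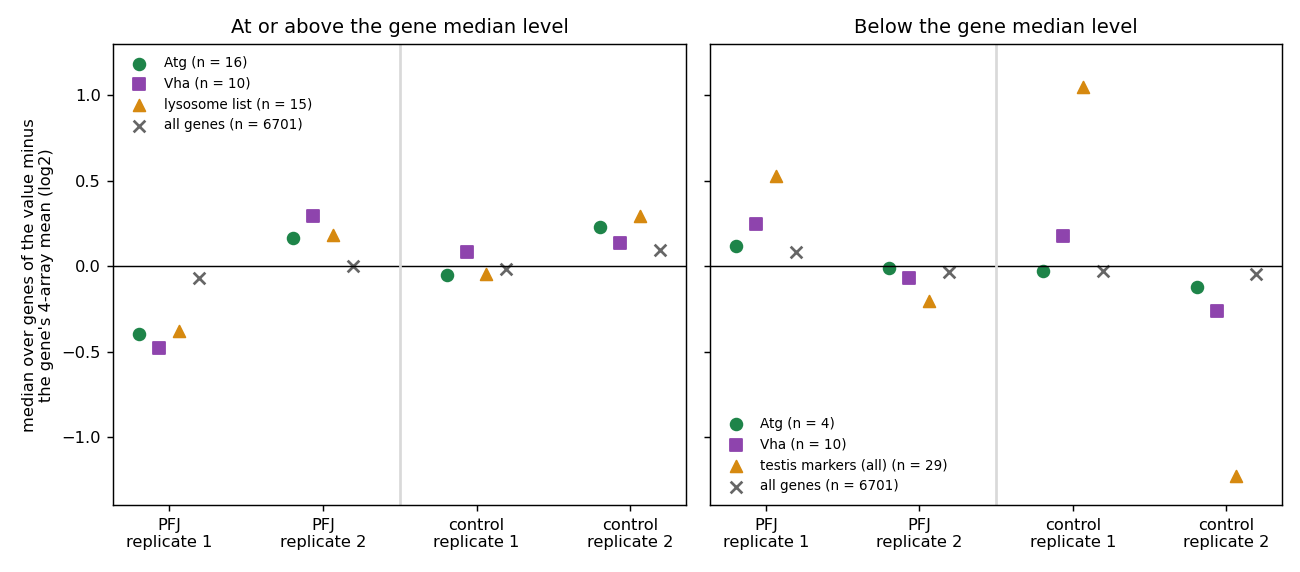
Median deviation from each gene's own 4-array mean (log2) on each array, for genes at or above (left) and below (right) the median level of all genes. The brighter Atg, Vha and lysosome genes are lowest in PFJ replicate 1 (-0.40, -0.48 and -0.38). The dimmer Atg and Vha genes and the testis markers are lowest in control replicate 2 (-0.12, -0.26 and -1.23). The testis list is drawn whole, with 16 of its 29 genes above the median level.

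Set side by side, the families differed less between diets than between the control replicates. The Vha median deviation minus the Atg one was 0.22 and 0.07 in PFJ replicates 1 and 2, against 0.16 and -0.30 in control replicates 1 and 2. PFJ replicate 2 lay below control replicate 1 and control replicate 2 was the lowest, so the groups overlapped. The Vha median log2 difference lay 0.17 above the Atg one, and -0.14 without control replicate 2. Among the brighter genes alone the medians were nearer, at -0.20 for 10 Vha genes and -0.26 for 16 Atg genes, with -0.07 for all genes of that level. Without PFJ replicate 1 the brighter Vha median was 0.22 and 0 of 10 differences were negative, while the brighter Atg median was -0.04 with 8 of 16 negative. No test between families was made, because the members of a family are not replicates of a diet.

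The rest of the autophagy pathway had 19 of 21 listed genes measured, with 17 negative differences and a median of -0.18. Of the 19, 15 lay at or above the median level, where 59.9% of all genes had negative differences. Groups did not overlap in 26.3% of the 19, against 28.6% of all genes. At an unadjusted limma p under 0.05 there was 1 gene in each direction, where 2.78% of all genes (233 higher and 140 lower) had such a p, and 0 passed adjustment. The gene bchs, whose product is a large scaffold of selective autophagy, read 5.48 and 5.68 in PFJ, against 6.14 and 6.42 in control. Its groups did not overlap, at -0.70 (SE 0.20), with an unadjusted limma p of 0.0242 and an adjusted p of 1. With each array left out in turn the difference lay between -0.84 and -0.56, with unadjusted limma p-values from 0.0356 to 0.108.

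The HOPS complex tethers autophagosomes to lysosomes, and 5 of its 6 measured genes had negative differences, with car the exception and a median of -0.44. Differences were negative in 48.1% of all genes, and in 59.9% of those at or above the median level. These 6 HOPS genes were counted as a group after their values were seen. They belong to the 19 of the list, and no median without 1 array is given for them alone. The gene car, the fly Vps33, read 3.79 and 3.69 in PFJ, against 3.22 and 3.33 in control, without overlap, at 0.46 (SE 0.17) and an unadjusted limma p of 0.0491. The gene dor, the fly Vps18, read 4.09 and 4.52 in PFJ, against 4.82 and 5.15 in control, also without overlap, at -0.68 (SE 0.25) and an unadjusted limma p of 0.0506. Vps11 overlapped between groups at -0.68 (SE 0.38). The cargo receptor gene ref(2)P, the fly p62, read 8.52 and 8.52 in PFJ, against 8.56 and 8.55 in control, a difference of only -0.03 (SE 0.16). Control replicate 2 was the highest array in 16 of the 19 genes, where it was highest in 40.1% of all genes at or above the median level. Without control replicate 2 the median of the list was 0.03 with 9 of 19 negative. The median was -0.27 without control replicate 1, and -0.17 without PFJ replicate 1 or without PFJ replicate 2.

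Of the V-ATPase genes with a letter after Vha, and their assembly factors, 12 of 15 were measured, with 6 negative differences and a median of -0.01. None had an unadjusted limma p under 0.05, where 2.78% of all genes had one. VhaM9.7-b, of the V0 e subunit, read 8.05 and 8.17 in PFJ, against 7.64 and 7.86 in control, at 0.36 (SE 0.18) without overlap. VhaSFD, the V1 H subunit, read 6.99 and 7.95 in PFJ, against 7.84 and 7.77 in control, and so shared the low PFJ replicate 1. VhaAC39-2, of the V0 d subunit, overlapped at 0.25 (SE 0.24), and VhaM9.7-c, also of the e subunit, was just apart at 0.19 (SE 0.20). Groups were apart in 16.7% of the 12 genes, against 28.6% of all genes.

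Lysosome genes had 15 of 20 listed members measured, with 11 negative differences, a median of -0.21 and 0 at an unadjusted limma p under 0.05. All 15 lay at or above the median level, where 59.9% of all genes were negative with a median of -0.07. Of all genes, 2.78% had such a p. CtsF, a cathepsin protease, read 6.81 and 7.85 in PFJ, against 8.13 and 8.72 in control. The groups did not overlap, at -1.09 (SE 0.45). Ppt1, a lysosomal thioesterase, was also apart, at -0.21 (SE 0.16). These 2 were the only listed genes with groups apart, 13.3% of those measured, where 27.7% of all genes at that level were. CtsL1, another cathepsin, and Lamp1, a protein of the lysosomal membrane, overlapped at -0.42 (SE 0.40) and -0.39 (SE 0.37). Leaving out PFJ replicate 1 gave the list a median of 0.10, and leaving out control replicate 2 a median of 0.04.

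Genes that control autophagy by nutrients or ecdysone had 17 of 22 measured, with 10 negative differences, a median of -0.12 and 0 at an unadjusted limma p under 0.05. All 17 lay at or above the median level, where 59.9% of all genes were negative with a median of -0.07. Of all genes, 2.78% had such a p. AMPKalpha, the energy-sensing kinase, read 6.85 and 7.18 in PFJ, against 7.32 and 7.43 in control, at -0.35 (SE 0.20) without overlap. The transcription factor gene foxo read 6.10 and 6.61 in PFJ, against 6.08 and 5.94 in control, and its groups were just apart at 0.34 (SE 0.24). The nuclear receptor gene Hr4 and usp, the partner of the ecdysone receptor, overlapped at -0.50 (SE 0.36) and -0.58 (SE 0.44). Groups were apart in 17.6% of the 17 genes, against 27.7% of all genes at that level.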

How the data were processed

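The deposited values are log2 intensities, 1 per transcript cluster and array, which the authors made by RMA in Expression Console 1.4.0.38, per the submitters' processing notes. Values between 1.36 and 12.7 mark the scale as log2. RMA brings the arrays to similar distributions and so hides a change common to most genes. The authors' genome build and annotation are not given in the sources used here. A gene table of the Release 6 assembly served only for names and for which genes are neighbours, and no coordinates are printed. Precision is limited by the 4 arrays.

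Of 16322 rows, 13441 had 1 gene symbol, 555 had several and 2326 were not in the platform table. Keeping the brightest row of each gene left 13402 genes. PFJ was compared with control in R 4.3.3 with limma 3.58.1 (lmFit and eBayes, two-sided, no covariate), with Benjamini-Hochberg adjustment genome-wide. SEs are moderated, with 4.01 degrees of freedom. The procedure was tested on simulated data with independent noise and with changes larger than that of any member. That test does not show how the procedure handles differences of the members' size, or shifts shared by many genes on 1 array. Each array carried its own pool of larvae, per the series' design text, and the labels name no batch.

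The members and lists were chosen with earlier results of these data known. All members could be named. Values on each array were given for members whose groups did not overlap or with an array at least 1 log2 unit from the others, and for some further members chosen after their values were seen. Of every other list, up to 4 genes with the smallest p were named, besides ref(2)P and VhaM9.7-d, which were chosen after their values were seen. The level split uses each gene's mean over the 4 arrays. Of the remaining marker lists, the median differences were 0.15 for tubule (11 genes), 0.04 for hemocyte (10), 0.56 for muscle (9), 0.00 for salivary glue (8) and -0.07 for neuron (6), and 0.25, 0.46 and 0.23 for fat body, midgut and testis.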

Additional observations from a re-analysis of the deposited data

How the results depend on the processing

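In every other fit run, 0 of the genes tested passed an adjusted p of 0.05 with limma, members included. At an unadjusted p under 0.05 the count over all genes was 373, and between 263 (median centring) and 945 (without control replicate 1) elsewhere. The Atg median of -0.20 was -0.25 with median centring, -0.15 with quantile normalisation repeated and -0.26 among brighter genes, and between -0.44 and -0.004 without 1 array. The Vha median of -0.03 ranged from -0.20 to 0.16 without 1 array, and the Vha minus Atg difference of 0.17 from -0.14 to 0.41. Leaving out 1 array took the count of members with groups apart from 6 to between 9 and 17 (Atg) and from 3 to between 9 and 14 (Vha), since 1 array then stands for a diet. With all 4 arrays the Vha count was 1 among brighter genes, where 10 members were tested and 27.7% of all genes of that level had groups apart. Vha26 ranged from -1.10 to 0.19 and Vha100-2 from -1.10 to 0.23, both positive without PFJ replicate 1. In those fits the lone array is assumed to vary like the other group. With the replicate number as a block, 0 genes passed, 547 had an unadjusted p under 0.05, and the medians were -0.20 and -0.03. The labels do not say that a number marks a shared batch. Deviations of same-numbered arrays correlated at 0.337 across genes.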
